A study of Mus musculus with 9 samples.

Results

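Solute carriers are membrane proteins that move amino acids, sugars, ions, metals, nucleotides and neurotransmitters across the plasma membrane or into organelles. They work without direct ATP hydrolysis, as facilitators, exchangers or cotransporters driven by ion gradients. In the spinal cord they clear and load transmitters, feed neurons and glia across the vessel wall, and set the chloride and pH of the cells. Their genes carry symbols that begin with Slc and a family number. The genes described here were chosen by symbol, with earlier results of these data known. The rule took every probe set with exactly 1 annotated symbol matching Slc and a digit. It left out Slc1a2, Slc1a3 and Slc18a3 and kept 1 probe set per gene. This gave 149 of 8251 genes, from 183 of 12488 probe sets. They were grouped by family number into 14 transport classes. Of these genes 3 are not carriers but proteins named after a carrier they bind (Slc4a1ap, Slc9a3r1 and Slc9a3r2).

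Expression was measured on 9 one-colour arrays, 1 for each total RNA sample from spinal cord of B10.PL mice. Naive mice gave replicates 2, 3 and 4. The other 6 samples came from mice in which experimental autoimmune encephalomyelitis (EAE), a T cell driven disease of brain and cord used to model multiple sclerosis, had been induced. Replicates 1, 5 and 10 received placebo and replicates 6, 7 and 8 received 200 ng calcitriol, active vitamin D, each 6 h before the cord was taken. The labels give no age, no batch and no treatment for the naive mice, so EAE and the placebo treatment cannot be told apart in the comparisons with naive cord. They also do not say whether the samples of a group are separate animals, so p-values measure the spread between these samples, which may be technical. One label of calcitriol replicate 6 gives the D2 and another the D3 form of the hormone.

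Values below are signal units scaled to a common mean on each array, raised to a floor of 19.3 units and compared as log2. A difference was called changed at a Benjamini-Hochberg adjusted p under 0.05 in limma over all 12177 tested probe sets. Each difference is given with its standard error (SE) in that fit, from 3 arrays per group. All 149 genes were tested, and 114 of them were above the floor on all 9 arrays.

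The naive arrays stood apart from each other. Across the 149 genes, pairs of naive arrays correlated at 0.686 to 0.855 on the log2 scale, pairs of placebo arrays at 0.903 to 0.920 and pairs of calcitriol arrays at 0.914 to 0.959, as a description over genes of shared arrays. The median SD of a solute carrier gene was 0.35 log2 in naive cord, 0.23 with placebo and 0.22 with calcitriol. The beta-actin 5′ minus 3′ difference, a measure of how far the labelled RNA reached along the transcript, was -0.05 ± 0.19 log2 (SD, n = 3) on naive, -0.80 ± 0.35 (SD, n = 3) on placebo and -0.67 ± 0.16 (SD, n = 3) on calcitriol arrays. Every comparison with naive cord below runs between arrays that also differ in this measure, and its part in the results was not tested.

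The tissue label was checked against marker genes. Neuron (7 of 8 markers measured), astrocyte (5 of 6) and oligodendrocyte (6 of 7) markers were present, with summed signals of 4337 to 9087, 5769 to 10904 and 5770 to 7574 units on the naive arrays. The 8 myeloid markers summed to 1414 to 1522 units on naive arrays, from 2791 to 3611 in the placebo group and from 3118 to 4902 in the calcitriol group. Lyz2, a lysozyme of myeloid cells, did not exceed the floor on any naive array. Nefl, Gfap, Gja1 and Mbp were also at the floor on naive replicate 2. They lay between 364 and 2714 units on the other 8 arrays. The oligodendrocyte marker Cnp was at the floor there and on placebo replicate 10. Apart from these and Mog, every measured neuron, astrocyte and oligodendrocyte marker had its highest signal on naive replicate 2. Among them were Nefm (3305 units), Snap25 (3380), Aqp4 (3332), S100b (1069) and Mag (2332). The cause was not tested. In bulk cord, fewer cells of a type and less RNA per cell cannot be told apart.

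Most solute carrier genes differed little between the groups. The median log2 difference over the 149 genes was -0.06 for placebo minus naive, 0.01 for calcitriol minus placebo and -0.02 for calcitriol minus naive, and over all tested probe sets it was -0.02, -0.00 and -0.02. The quartiles of the genes were at -0.25 and 0.28 log2 for placebo minus naive, at -0.16 and 0.13 for calcitriol minus placebo, and at -0.20 and 0.18 for calcitriol minus naive. In placebo against naive 0 of 149 genes passed the limma test, where 0.936% of all probe sets did, and 10 of 149 had an unadjusted p under 0.05, where 9.33% of all probe sets had one. In calcitriol against naive 2 of 149 passed, 1 higher and 1 lower, where 2.0% of all probe sets passed (1.68% higher and 0.32% lower). In calcitriol against placebo 0 passed in limma, as did 0.0% of all probe sets, and 4 had an unadjusted p under 0.05 against 2.58% of all. In calcitriol against naive 11 had an unadjusted p under 0.05, or 7.38%, against 11.9% of all.

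Counts of genes whose groups did not overlap were near the background too. In placebo against naive 18 of 149 genes had groups without overlap (8 higher and 10 lower), or 12.1%, against 14.5% of all probe sets (7.39% higher and 7.13% lower). In calcitriol against placebo it was 15 genes (8 higher, 7 lower), or 10.1%, against 9.99% (4.82% higher and 5.17% lower). In calcitriol against naive it was 18 genes (6 higher, 12 lower), or 12.1%, against 16.1% (8.45% higher and 7.69% lower). The shares of solute carriers called or separated were thus near or below those of all probe sets.

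**Figure D1:**
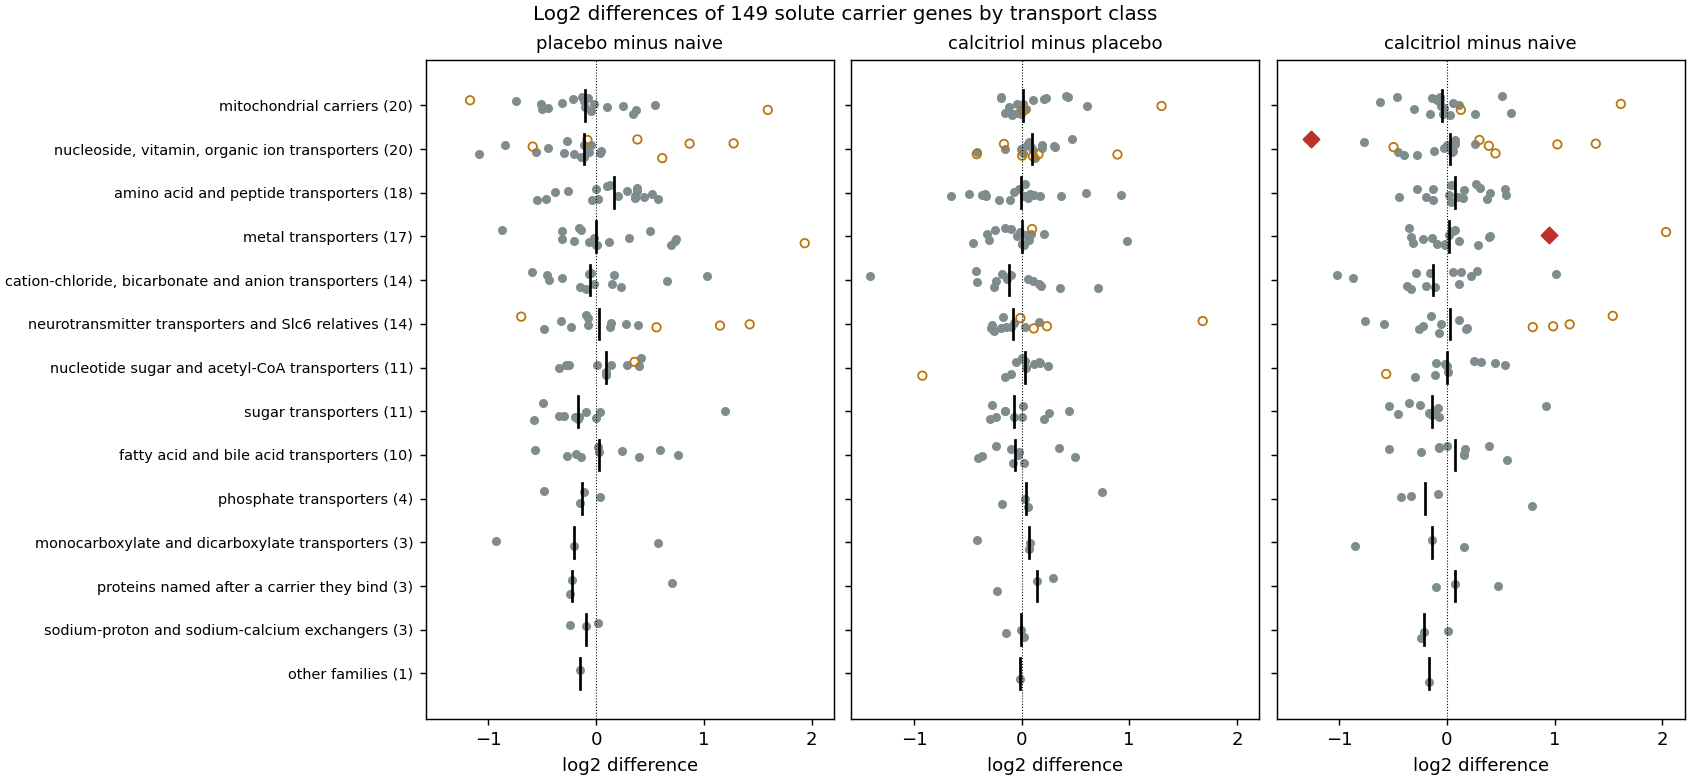
Log2 difference of each of the 149 solute carrier genes (points) by transport class (rows, number of genes in brackets) in the 3 comparisons, with the class median as a bar. Red diamonds are the 2 genes that passed the limma test, and open circles are the 14 genes with an array listed at exactly 0, which hold most of the differences beyond 1 log2.

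The 2 genes that passed were Slc22a17 and Slc11a1. Slc22a17 encodes a receptor for lipocalin 2, a siderophore-binding protein, and is also known as a brain-type member of the organic cation transporter family. Slc11a1 (also known as Nramp1) encodes the metal ion transporter of phagosomes in macrophages and neutrophils, which withdraws iron and manganese from engulfed microbes.

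Slc22a17 was at 1969, 1664 and 1565 signal units on naive replicates 2, 3 and 4. It was at 1100, 1030 and 779 units on placebo replicates 1, 5 and 10, and at 808, 699 and 659 units on calcitriol replicates 6, 7 and 8. The highest EAE array lay below the lowest naive array, while the placebo and calcitriol arrays overlapped, since placebo replicate 10 lay below calcitriol replicate 6. It was 2.40-fold lower with calcitriol than in naive cord (-1.26 ± 0.17 log2, SE, limma adjusted p = 0.00625). This call held in each of the 20 alternative settings tried, where the adjusted p ran from 0.000628 to 0.0419. The difference between placebo and naive was -0.85 ± 0.17 log2 (SE, limma adjusted p = 0.0613) and did not pass. It passed in 2 of the 20 settings, with exact zeros left out (limma adjusted p = 0.0284) and with array weights (limma adjusted p = 0.00921), in a range of 0.00921 to 0.193. Calcitriol minus placebo was -0.42 ± 0.17 log2 (SE, limma adjusted p = 1, unadjusted p = 0.0376).

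The ligand of this receptor was higher in EAE cord. Lcn2, which encodes lipocalin 2 and is not a solute carrier, was named after its values were seen. Its main probe set was at 233, 429 and 328 units on naive replicates 2, 3 and 4, at 1041, 1658 and 1231 on placebo replicates 1, 5 and 10, and at 1505, 1115 and 1709 on calcitriol replicates 6, 7 and 8. It rose by 2.01 ± 0.26 log2 (SE, limma adjusted p = 0.0104) with placebo and by 2.15 ± 0.26 log2 (SE, limma adjusted p = 0.00401) with calcitriol, against naive cord. A second probe set gave 0.65 and 0.80 log2 and did not pass (limma adjusted p = 0.222 and 0.07). Calcitriol minus placebo was 0.14 ± 0.26 log2 (SE, limma adjusted p = 1).

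Neuron markers were also lower in EAE cord. Their summed signal was 4337 to 9087 units on naive arrays, from 2995 to 4137 in the placebo group and from 2587 to 3242 in the calcitriol group. None of the 7 passed the limma test, 6 of 7 were lower in each comparison with naive cord, and the median differences of the 7 were -0.58 log2 with placebo and -0.85 log2 with calcitriol. The 6 were each highest on naive replicate 2. Only Nefm and Syt1 had no overlap between placebo and naive arrays, and with calcitriol Snap25 and Eno2 had none as well. Nefl, which was higher, was at the floor on naive replicate 2. It was at 745 and 784 units on naive replicates 3 and 4, against 364 to 582 on EAE arrays. Of 6 oligodendrocyte markers 5 were lower in calcitriol than in naive cord (median -0.46 log2), and 1 of them, the myelin surface protein gene Mog, passed. The part of either cell type in the Slc22a17 difference was not tested.

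Slc11a1 was at 155, 188 and 160 units on naive replicates 2, 3 and 4, at 297, 290 and 251 units on placebo replicates 1, 5 and 10, and at 346, 267 and 358 units on calcitriol replicates 6, 7 and 8. The 6 EAE arrays all lay above the 3 naive arrays. It was 1.92-fold higher with calcitriol than in naive cord (0.94 ± 0.17 log2, SE, limma adjusted p = 0.0204). The call held in 16 of the 20 settings, over which the adjusted p ran from 0.0090 to 0.113. It was lost when only the calcitriol and naive arrays were fitted (limma adjusted p = 0.0795), without calcitriol replicate 6 (0.0841), without calcitriol replicate 8 (0.113) and without naive replicate 4 (0.0549), with the log2 difference between 0.87 and 0.94 in these 4. In placebo against naive the difference was 0.74 ± 0.17 log2 (SE, limma adjusted p = 0.0954), which passed only with array weights (limma adjusted p = 0.0333, in a range of 0.0333 to 0.368). Calcitriol minus placebo was 0.21 ± 0.17 log2 (SE, 95% interval -0.17 to 0.58), and the arrays overlapped.

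Myeloid markers were also higher in EAE cord, 8 of 8 with placebo and 6 of 8 with calcitriol. Of the 8, 2 rose in placebo against naive, Lyz2 and the protease Ctss, and 4 rose in calcitriol against naive, these and the leukocyte integrin Itgam and the endotoxin coreceptor Cd14. Their median differences were 0.67 and 0.86 log2. T cell markers (5 measured) summed to 1082 to 1198 units on naive arrays, from 978 to 1055 in the placebo group and from 977 to 1251 in the calcitriol group. How much of the Slc11a1 difference goes with more myeloid RNA was not tested.

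The 250 bases before the start of the 2 genes are shown because these are the genes the tests turned on. They were taken from RefSeq on GRCm38.p6, at chr14:54913133-54913382 on the minus strand for Slc22a17 and chr1:74374953-74375202 on the plus strand for Slc11a1, and capitals mark a motif match.
Slc22a17: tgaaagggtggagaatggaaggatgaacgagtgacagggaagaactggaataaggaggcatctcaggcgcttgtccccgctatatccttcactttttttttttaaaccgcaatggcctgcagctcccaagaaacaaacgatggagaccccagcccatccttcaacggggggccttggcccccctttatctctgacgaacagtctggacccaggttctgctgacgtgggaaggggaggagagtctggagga
Slc11a1: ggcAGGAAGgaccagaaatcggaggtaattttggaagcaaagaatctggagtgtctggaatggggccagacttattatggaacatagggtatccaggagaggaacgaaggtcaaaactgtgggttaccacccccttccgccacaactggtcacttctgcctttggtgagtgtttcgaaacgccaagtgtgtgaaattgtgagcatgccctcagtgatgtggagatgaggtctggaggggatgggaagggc
Both strands were searched for 7 motifs: the C/EBP site TTNNGCAA, the gamma-interferon activated site TTCNNNGAA, the interferon-stimulated element (GAAA, any 2 bases, GAAA), the GC box GGGCGG, the TATA box TATAAA, the ETS core AGGAAG and the vitamin D direct repeat (AGGTCA, any 3 bases, AGGTCA). The match found was 1 ETS core in Slc11a1, at bases -247 to -242 from the start. Of 32851 promoters of this length, 29.5% hold an ETS core, 32.7% a GC box, 12.4% a TATA box, 9.56% a C/EBP site, 7.02% a gamma-interferon activated site, 2.98% an interferon-stimulated element and 0.00609% the vitamin D repeat. Promoters were found for 122 of the 149 genes, 173 in all, and 54.9% of them hold a GC box and 26.0% an ETS core. A C/EBP site is in 8.09%, a TATA box in 5.78% and a gamma-interferon activated site in 3.47%. The interferon-stimulated element is in 0.578% and the vitamin D repeat in 0.0%. The median GC content of these promoters was 59.6%, against 52.4% over all promoters, which include genes not on the array. Its part in the motif shares was not tested. A match is only a match of letters.

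**Figure D2:**
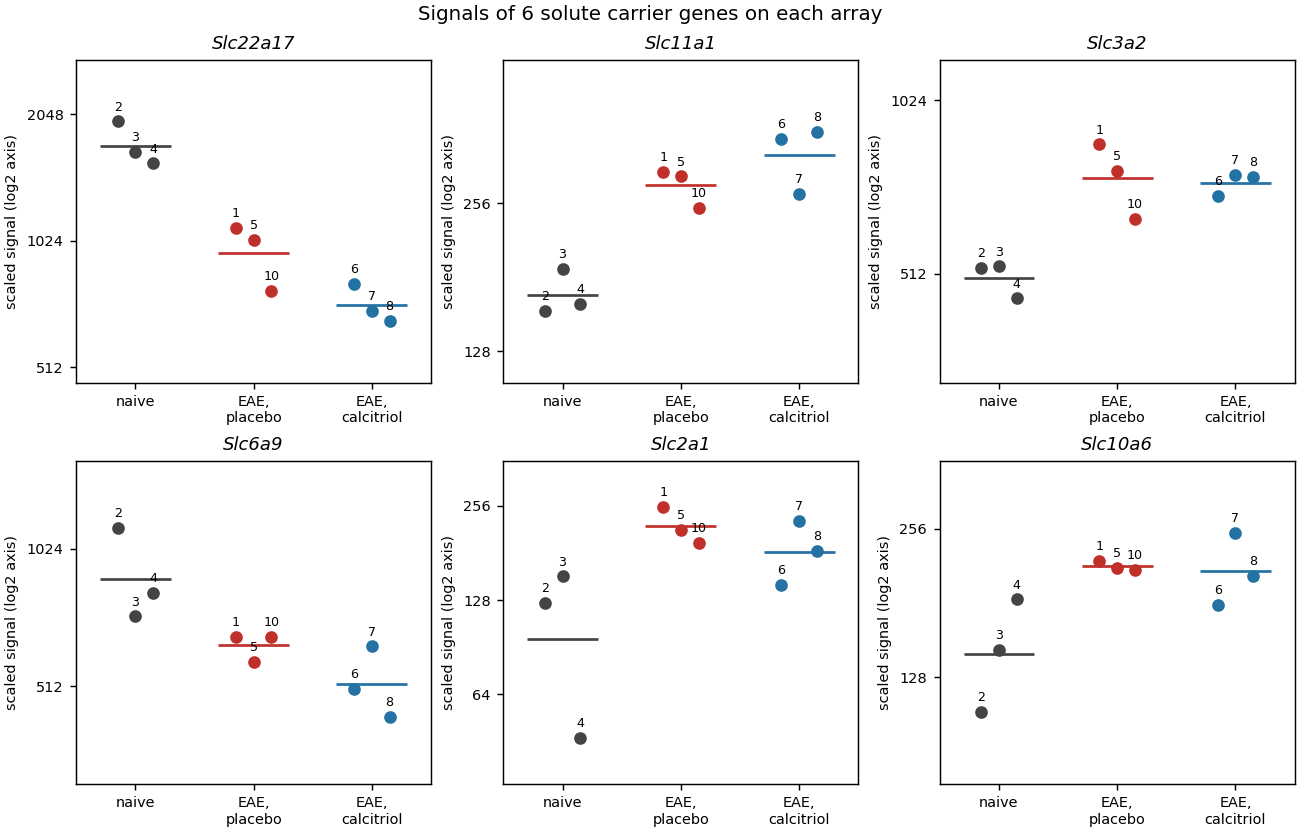
Scaled signal (log2 axis) of 6 solute carrier genes on each of the 9 arrays, numbered by replicate, with the group's geometric mean as a line. Slc22a17 lies between 1565 and 1969 units on the naive arrays and at most at 1100 on the EAE arrays, and Slc11a1 at 188 or less and at 251 or more.

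Among amino acid transporters, Slc3a2 had the smallest p in both comparisons with naive cord. It encodes the heavy chain (CD98) that carries several amino acid exchangers to the membrane. It was at 524, 528 and 464 units on naive replicates 2, 3 and 4, at 859, 773 and 639 on placebo replicates 1, 5 and 10, and at 700, 761 and 754 on calcitriol replicates 6, 7 and 8. All EAE arrays lay above all naive arrays. The differences were 0.57 ± 0.14 log2 (SE, limma adjusted p = 0.134) for placebo and 0.55 ± 0.14 log2 (SE, limma adjusted p = 0.105) for calcitriol, so neither passed. Both passed with array weights (limma adjusted p = 0.0241 and 0.0216), where naive replicate 3 carries most of the naive group. Its light chain partner Slc7a5, a transporter of large neutral amino acids, ranged from 293 to 405 units on naive and from 332 to 436 on the EAE arrays.

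As a class the 18 amino acid and peptide transporters had 13 genes higher and 5 lower in each comparison with naive cord. Their medians were 0.17 log2 for placebo and 0.08 log2 for calcitriol, and 0 passed. Of all 12177 tested probe sets, 5813 were higher with placebo and 5848 with calcitriol than in naive cord. Slc15a2, a peptide transporter of astrocytes and choroid plexus, had groups without overlap. It ranged from 89.4 to 109 units on naive arrays, from 59.9 to 88.3 in the placebo group and from 61.4 to 78.2 in the calcitriol group. Slc7a7, the y+L light chain found in macrophages, ranged from 69.6 to 77.5 on naive and from 88.9 to 101 on placebo arrays, and overlapped with calcitriol. Slc15a2, Slc7a7, Slc7a5 above and Slc11a2 below were named after their values were seen.

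Among neurotransmitter transporters, Slc6a9 had the smallest p against naive cord. It encodes GlyT1, the glial transporter that clears glycine at inhibitory synapses of the cord. Its signal was 1138, 728 and 821 units on naive replicates 2, 3 and 4, then 656, 579 and 657 on placebo replicates 1, 5 and 10, and 505, 626 and 439 on calcitriol replicates 6, 7 and 8. Every EAE array was below every naive array, and naive replicate 2 was the highest of all. The difference was -0.76 ± 0.19 log2 (SE, limma adjusted p = 0.102) for calcitriol and -0.48 ± 0.19 log2 (SE, limma adjusted p = 0.458) for placebo, and neither passed.

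Slc32a1, the vesicular transporter that loads GABA and glycine, was at 792 units on naive replicate 2 and at 361 and 317 on naive replicates 3 and 4. On EAE arrays it ranged from 267 to 460. The difference of calcitriol from naive, -0.59 ± 0.32 log2 (SE, limma adjusted p = 0.531), was -0.18 log2 without naive replicate 2. Slc1a1, a neuronal glutamate and cysteine transporter, ranged from the floor to 86.6 units on naive and from 28.4 to 64.3 on EAE arrays, and its difference for calcitriol, -0.26 ± 0.59 log2 (SE), turned positive in 4 of the 20 settings. Over the 14 genes of this class, 7 were higher and 7 lower in each comparison with naive cord.

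The naive arrays differed from each other in several transport classes. Relative to each gene's naive mean, fatty acid and bile acid transporters had medians of -0.21, -0.10 and 0.17 log2 on naive replicates 2, 3 and 4. For chloride, bicarbonate and anion transporters the class medians on these arrays were -0.25, -0.05 and 0.18 log2. Those on placebo replicate 5 (-0.19 log2) and calcitriol replicate 8 (-0.26 log2) were near that of naive replicate 2. Although its class median was the lowest of the 3 naive arrays, the genes Slc12a2 and Slc4a4 were highest on naive replicate 2. Slc12a2 (NKCC1) imports chloride with sodium and potassium. It was at 423 units on naive replicate 2, at 192 and 145 on naive replicates 3 and 4, from 106 to 183 on placebo and from 75.4 to 159 on calcitriol arrays. Calcitriol minus naive was -1.02 ± 0.42 log2 (SE, limma adjusted p = 0.374), and -0.57 log2 without naive replicate 2, and the groups overlapped. Slc4a4 (NBCe1), the sodium bicarbonate cotransporter of astrocytes, was likewise at 495 on naive replicate 2 and at 258 and 186 on the other naive arrays, against 115 to 276 on EAE arrays (calcitriol minus naive -0.87 ± 0.44 log2, SE, limma adjusted p = 0.496, and -0.48 log2 without naive replicate 2).

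Slc12a5 (KCC2) exports chloride from neurons. On naive replicate 2 it had the lowest signal of the 9 arrays, 215 units, with 428 and 379 on naive replicates 3 and 4 and 254 to 329 on EAE arrays. Calcitriol minus naive was -0.29 ± 0.24 log2 (SE, limma adjusted p = 0.699), and -0.65 log2 with array weights, which put little weight on naive replicate 2 (limma adjusted p = 0.0297). Slc4a2, an anion exchanger found in most cells, was at 456 to 538 units on naive and 328 to 437 on calcitriol arrays without overlap (-0.33 ± 0.14 log2, SE, limma adjusted p = 0.402). Slc4a5, a sodium bicarbonate cotransporter, was at 64.9, 28.6 and 31.7 units on calcitriol replicates 6, 7 and 8, while each naive array was at the floor, and the difference did not pass (limma adjusted p = 0.357).

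Sugar transporters were lower than naive more often than higher, 8 of 11 with placebo and 10 of 11 with calcitriol. Their medians were -0.17 and -0.14 log2, with 0 past the test. Of all 12177 tested probe sets, 6364 were lower with placebo and 6329 with calcitriol. The genes of a class share the same naive arrays, so such counts only describe them. Slc2a1 (GLUT1), the gene that was higher with calcitriol, brings glucose across the endothelium of the blood-brain barrier and into glia. It was at 125, 152 and 46.3 units on naive replicates 2, 3 and 4, at 254, 215 and 195 on placebo replicates 1, 5 and 10, and at 143, 229 and 184 on calcitriol replicates 6, 7 and 8. Placebo arrays lay above all naive arrays, and calcitriol arrays overlapped with them. The differences were 1.20 ± 0.40 log2 (SE, limma adjusted p = 0.33) for placebo and 0.92 ± 0.40 log2 (SE, limma adjusted p = 0.405) for calcitriol, and naive replicate 4 lay farthest below. Without that array they were 0.67 and 0.39 log2. The placebo difference ranged from 0.67 to 1.53 log2 over the 20 settings. Slc2a3 (GLUT3), the neuronal glucose transporter, ranged from 297 to 454 units on naive arrays, from 360 to 443 in the placebo group and from 314 to 375 in the calcitriol group.

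The 3 lactate and pyruvate transporters of the Slc16 family were not called. Slc16a1 (MCT1), found in endothelium and oligodendrocytes, ranged from the floor to 74.8 units on naive arrays, from 41.9 to 84.0 in the placebo group and from 22.2 to 80.7 in the calcitriol group. Slc16a7 (MCT2), the neuronal form, was at the floor, 48.1 and 71.0 units on naive replicates 2, 3 and 4 and at most at 30.1 on EAE arrays (placebo minus naive -0.93 ± 0.47 log2, SE, limma adjusted p = 0.612).

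Metal transporters other than Slc11a1 did not pass. Slc31a1 (CTR1) imports copper. It ranged from 125 to 174 units on naive and from 185 to 245 on placebo arrays, without overlap, and from 156 to 225 on calcitriol arrays (placebo minus naive 0.50 ± 0.21 log2, SE, limma adjusted p = 0.474). Its other probe set was higher in both comparisons with naive as well, by 0.43 and 0.90 log2. Slc30a1 (ZnT1), which exports zinc, was between 226 and 324 units on 8 of the arrays and at 36.9 on placebo replicate 5, and calcitriol minus placebo went from 0.98 to 0.044 log2 without that array. Slc11a2 (DMT1), the relative of Slc11a1 that imports iron in most cells, ranged from 149 to 251 units on naive and from 122 to 203 on EAE arrays. The 17 genes of the class had medians of -0.00 log2 for placebo and 0.01 log2 for calcitriol against naive.

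Mitochondrial carriers, 20 genes of the Slc25 family, had medians of -0.10 log2 for placebo and -0.05 log2 for calcitriol against naive. Of these genes 14 and 12 were lower, beside 6364 and 6329 of all 12177 tested probe sets, and 0 passed the test. Slc25a28 (mitoferrin 2) imports iron into mitochondria. It was at 203, 157 and 130 units on naive replicates 2, 3 and 4, at 205, 235 and 185 on placebo replicates 1, 5 and 10 and at 247, 226 and 257 on calcitriol replicates 6, 7 and 8. Calcitriol arrays lay above all naive arrays. The difference of 0.60 ± 0.19 log2 (SE, limma adjusted p = 0.205) passed without naive replicate 2 (0.77 log2, limma adjusted p = 0.0451) and with array weights (0.62 log2, limma adjusted p = 0.0217), in a range over settings of 0.0217 to 0.506.

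The adenine nucleotide translocases exchange ATP for ADP across the inner mitochondrial membrane. Slc25a4 (ANT1) was at 2231 units on naive replicate 2 and at 1009 and 840 on naive replicates 3 and 4, against 679 to 1035 on EAE arrays (calcitriol minus naive -0.62 ± 0.33 log2, SE, limma adjusted p = 0.516, and -0.20 log2 without naive replicate 2). Slc25a5 (ANT2) was at 1024, 566 and 444 on naive arrays, from 396 to 556 in the placebo group and from 573 to 672 in the calcitriol group, so that calcitriol lay above placebo without overlap (0.41 ± 0.27 log2, SE, limma adjusted p = 1). Its other 2 probe sets were also higher with calcitriol, by 0.60 and 0.42 log2. In the second of them the groups overlapped, at 171 to 275 units with calcitriol and 145 to 196 with placebo. For placebo minus naive these 2 probe sets had opposite signs, at -0.98 and 0.17 log2. Slc25a51, the mitochondrial NAD carrier, ranged from 95.7 to 136 units on naive and from 60.4 to 96.3 on placebo arrays (-0.50 ± 0.26 log2, SE, limma adjusted p = 0.634). A second probe set of Slc25a51 gave -0.04 log2 (limma adjusted p = 0.973).

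Transporters of fatty acids and bile acids had medians near 0. Slc10a6, a carrier of sulphated steroids, was at 109, 145 and 184 units on naive replicates 2, 3 and 4, at 220, 213 and 211 on placebo replicates 1, 5 and 10, and at 179, 250 and 206 on calcitriol replicates 6, 7 and 8. Placebo arrays lay above naive without overlap (0.59 ± 0.21 log2, SE, limma adjusted p = 0.385), and calcitriol replicate 6 lay just below naive replicate 4 (0.55 ± 0.21 log2, SE, limma adjusted p = 0.326). The calcitriol difference passed with array weights (limma adjusted p = 0.0363). Slc10a1, the bile acid importer of liver, ranged from 121 to 150 units on naive arrays, from 74.3 to 119 in the placebo group and from 112 to 157 in the calcitriol group (placebo minus naive -0.57 ± 0.24 log2, SE, limma adjusted p = 0.483). Other probe sets of Slc10a1 gave smaller differences of -0.21 and -0.14 log2 for placebo minus naive (limma adjusted p = 0.93 and 0.951).

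Carriers of nucleosides, vitamins, choline and organic ions, the class of Slc22a17, had 14 of 20 genes lower with placebo than in naive cord (median -0.11 log2). With calcitriol 15 of 20 were higher than with placebo (median 0.10 log2). Of all 12177 tested probe sets, 6364 were lower in the first of these comparisons and 6061 higher in the second. Both comparisons use the same placebo arrays, so low values on those arrays push the 2 counts in opposite directions. In calcitriol against naive 12 of the 20 genes were higher and 8 lower (median 0.03 log2). Slc22a17 was the 1 gene of the class past the test, in calcitriol against naive. The 11 nucleotide sugar and acetyl-CoA transporters had medians of 0.09 log2 for placebo and -0.00 log2 for calcitriol against naive. Slc22a30, an organic anion transporter relative measured by a probe set that is not of the plain kind, ranged from 46.7 to 61.0 units on naive arrays, from the floor to 35.2 in the placebo group and from the floor to 44.6 in the calcitriol group (placebo minus naive -1.09 ± 0.39 log2, SE, limma adjusted p = 0.38). Slc35e4, an orphan of the nucleotide sugar transporter family, ranged from 1349 to 1540 on naive arrays, from 1005 to 1332 in the placebo group and from 1103 to 1248 in the calcitriol group (calcitriol minus naive -0.30 ± 0.15 log2, SE, limma adjusted p = 0.497). Both groups of EAE arrays lay below naive. The sodium-calcium exchanger Slc8a1 ranged from 176 to 275 units on naive and 145 to 224 on EAE arrays, and Slc66a2 from 175 to 275 and from 187 to 224.

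Calcitriol was compared with placebo among the EAE mice, 6 h after treatment. No solute carrier gene passed the limma test (adjusted p = 1 for each gene named here). The smallest unadjusted p-values were those of Slc6a4, Slc26a1, Slc7a11 and Slc22a17. These 4 of 149, or 2.68%, stand against 2.58% of all probe sets with an unadjusted p under 0.05.

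Slc6a4 (SERT), the serotonin transporter of axons that descend from the brainstem and of platelets, was at 97.2, 71.5 and 57.6 units on calcitriol replicates 6, 7 and 8 and at 23.4, 26.8 and the floor on placebo replicates 1, 5 and 10, where replicate 10 was listed at 0. Naive replicates 2, 3 and 4 were at the floor, 70.0 and 38.1. Calcitriol minus placebo was 1.68 ± 0.46 log2 (SE, limma adjusted p = 1, unadjusted p = 0.00457). A second probe set of the gene gave 0.03 log2. Naive arrays overlapped with the placebo arrays and reached the lower calcitriol arrays. Placebo minus naive was -0.70 ± 0.46 log2 (SE, limma adjusted p = 0.72), which passed as lower only with array weights (limma adjusted p = 0.035, in a range over settings of 0.035 to 0.897).

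Slc26a1 (SAT1), a sulphate and oxalate exchanger, was at the floor, 26.3 and 19.8 units on calcitriol replicates 6, 7 and 8 and at 55.6, 47.4 and 71.4 on placebo replicates 1, 5 and 10 (-1.41 ± 0.45 log2, SE, limma adjusted p = 1, unadjusted p = 0.0118). Naive replicates 2 and 4 were at the floor and replicate 3 at 59.0. Slc7a11 (xCT) exchanges cystine for glutamate and feeds glutathione synthesis. It was at 41.3, 41.3 and 40.8 units on the calcitriol arrays and at the floor, 22.3 and 23.8 on placebo replicates 1, 5 and 10 (0.92 ± 0.33 log2, SE, limma adjusted p = 1, unadjusted p = 0.0203), and naive arrays ran from the floor to 41.0. All 3 of these genes had low signals with some arrays at the floor, and for each of them the naive arrays overlapped with both EAE groups.

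**Figure D3:**
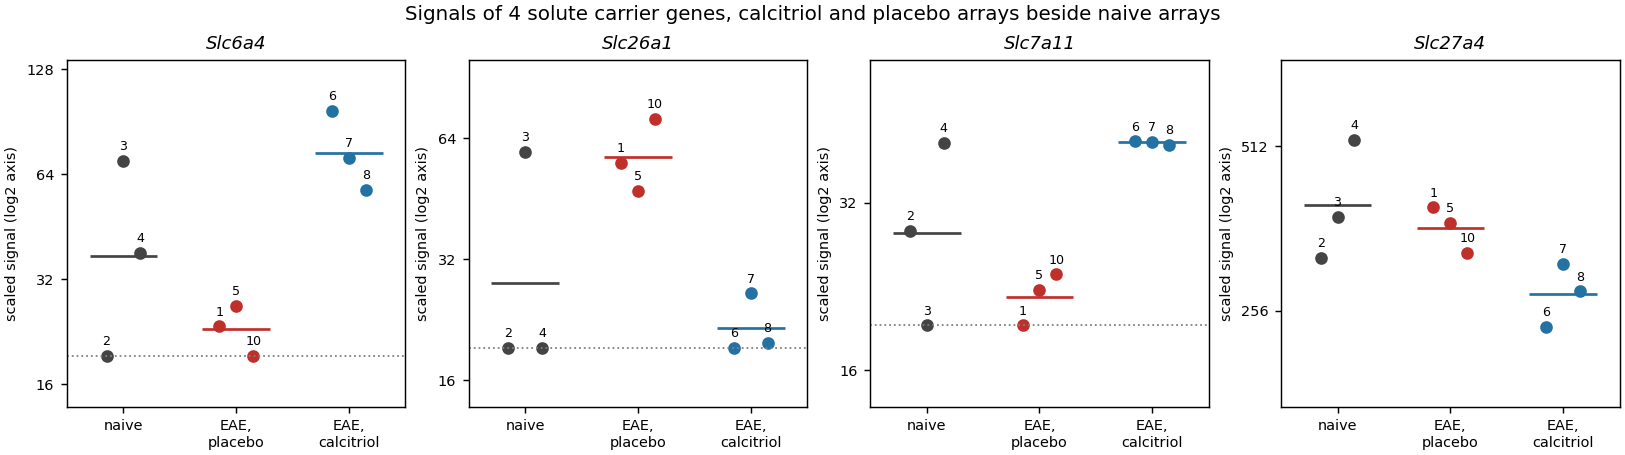
Scaled signal (log2 axis) of 4 genes on each array, numbered by replicate, with the geometric mean of each group as a line and the floor of 19.3 units dotted. Calcitriol and placebo arrays do not overlap in any of the 4, but none passed the limma test, and for Slc6a4, Slc26a1 and Slc7a11 single naive arrays lie near both EAE groups.

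Brighter genes separated calcitriol from placebo by smaller amounts. Slc27a4 (FATP4), an acyl-CoA synthetase that takes up long-chain fatty acids, ranged from 239 to 312 units on calcitriol and 327 to 396 on placebo arrays (-0.40 ± 0.20 log2, SE, limma adjusted p = 1), with naive at 320 to 526. Against naive its difference with calcitriol was -0.54 ± 0.20 log2 (SE, limma adjusted p = 0.284). Slc38a4, a neutral amino acid transporter, ranged from 71.8 to 97.5 on calcitriol and 104 to 135 on placebo arrays (-0.49 ± 0.26 log2, SE, limma adjusted p = 1). The choline transporter-like genes Slc44a2 (82.5 to 108 on calcitriol, 53.7 to 81.6 on placebo arrays) and Slc44a4 (187 to 214 and 135 to 180) were higher on all calcitriol arrays, by 0.47 ± 0.25 and 0.30 ± 0.16 log2 (SE, limma adjusted p = 1 for each). A second probe set of Slc44a4 gave -0.06 log2.

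Slc9a3r1 (NHERF1), a scaffold that tethers carriers to the cytoskeleton, ranged from 617 to 688 units on calcitriol and 517 to 537 on placebo arrays without overlap (0.29 ± 0.18 log2, SE, limma adjusted p = 1). Naive replicates 3 and 4 were at 527 and 524, close to placebo, and naive replicate 2 was at 846. The amino acid exchanger Slc7a6 (0.60 ± 0.35 log2), the sodium phosphate cotransporter Slc17a1 (0.75 ± 0.47 log2) and Slc35a4 (-0.92 ± 0.58 log2, all SE) had overlapping groups and did not pass (limma adjusted p = 1). Calcitriol replicate 6 was listed at 0 for Slc35a4, and the difference was -0.12 log2 without that value. For Slc7a6 and Slc17a1 a second probe set had the opposite sign, at -0.43 and -0.24 log2.

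Most of the differences above 2-fold belonged to genes with an array listed at exactly 0, named here after their values were seen. There were 14 such genes with 1 zero each, 5 on naive replicate 2, 4 on naive replicate 4, 3 on placebo and 2 on calcitriol arrays. In 7 of them every other array was above 100 units. Slc39a1 (ZIP1), a zinc importer, was listed at 0 on naive replicate 2 and lay between 891 and 1210 units on the other 8 arrays. With the 0 raised to the floor, calcitriol minus naive was 2.03 log2, and with the 0 left out it was 0.14 ± 0.18 log2 (SE, limma adjusted p = 0.825). A second plain probe set of Slc39a1, with no 0, ranged from 377 to 552 units on naive arrays and from 628 to 826 on EAE arrays, without overlap. It gave 0.58 log2 for placebo and 0.68 log2 for calcitriol against naive, which did not pass (limma adjusted p = 0.224 and 0.0883), so the probe sets of this gene disagree in size.

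Slc25a45, Slc6a18, Slc29a1 and Slc46a1 stood at 1.61, 1.54, 1.38 and 1.03 log2 for calcitriol minus naive, and at -0.16, -0.09, -0.16 and -0.19 log2 with the 0 left out. A second probe set of Slc29a1, with no 0, was higher than naive by 0.40 log2 with placebo and 0.17 log2 with calcitriol. Neither passed (limma adjusted p = 0.481 and 0.764). Slc25a10, the mitochondrial dicarboxylate carrier, was listed at 0 on placebo replicate 1, and its calcitriol minus placebo difference went from 1.30 to -0.06 log2. Of 9 genes at least 2-fold different between placebo and naive (6.04%, against 6.09% of all probe sets), 6 had an exact 0. With zeros left out 3 genes were at least 2-fold different, Slc22a30, Slc26a1 and Slc2a1. For calcitriol against naive 9 genes (6.04%, against 7.28% of all probe sets) became 3, Slc12a2, Slc22a17 and Slc4a5. Since bright genes were among those listed at 0, a 0 may be a failed estimate and is not read as absence.

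**Figure D4:**
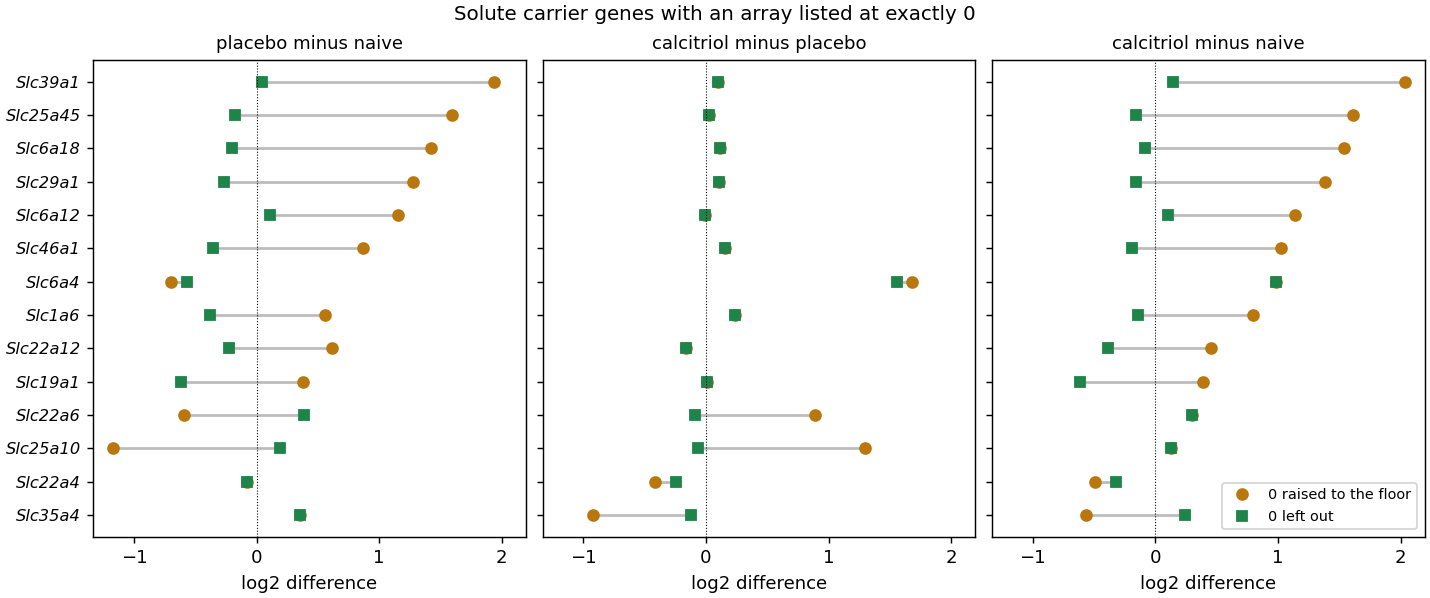
Log2 difference of the 14 solute carrier genes with an array listed at exactly 0, in the 3 comparisons, with the 0 raised to the floor (circles) and with it left out (squares). Slc39a1 moves from 2.03 to 0.14 log2 for calcitriol minus naive, and Slc6a4 stays at 1.56 log2 for calcitriol minus placebo.

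Other transport genes gave a like picture. Of 10 measured carriers that belong to solute carrier families under another symbol (such as Ucp3, Mpc1 and Slco3a1), 0 passed in any comparison, with medians of 0.08, -0.08 and -0.14 log2 for placebo minus naive, calcitriol minus placebo and calcitriol minus naive. Of 25 ABC transporters, which pump their cargo with ATP, 1 fell with calcitriol against naive, the lysosomal lipid transporter of oligodendrocytes Abca2 (-0.92 ± 0.17 log2, SE, limma adjusted p = 0.029), and 0 passed in the other comparisons. Medians of the ABC genes were -0.05, -0.13 and -0.11 log2. Of 6 aquaporins, the water channels, 0 passed, with medians of -0.03, -0.04 and -0.10 log2.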

How the data were processed

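Per the labels, spinal cord RNA of 9 samples was hybridised to 1 array each. The authors deposited 1 linear intensity per probe set and array (12488 probe sets), and their scaling is not given in the sources used. Of these values 765 were exactly 0. Each array was multiplied so that its mean, trimmed by 2% at both ends and without 66 control probe sets, was 192.8. Values under 10% of that mean were set to it (the floor), and log2 was taken. Of 12422 probe sets, 12177 above the floor on at least 3 arrays were tested in 1 limma fit (limma 3.58.1, R 4.3.3) over all 9 arrays, with an intensity trend and 6 residual degrees of freedom. The fit was also run on simulated data with the same spread in each group and no exact zeros. It therefore does not show how the fit performs on these arrays. The number of arrays limits precision: the median SE was 0.29 log2. Python 3.11.15, pandas 2.3.3 and matplotlib 3.10.9 made tables and plots.

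Symbols came from the platform annotation, where 10833 probe sets outside the controls had 1 symbol. A plain probe set was preferred, then the brightest, and 29 of 149 genes had several. Named genes were those past the threshold, the 6 higher and 6 lower with the smallest p in each comparison, the one with the smallest p in each class and a list of 21 well-known carriers, of which 13 were measured. Members, classes and lists were chosen with earlier results of these data known. Alternatives were values as deposited, quantile normalization, floors of 5% and 20%, no filter, a filter on the mean, exact zeros left out, array weights, only the 2 groups compared, no trend, the mean of all probe sets of a gene, and leaving out each array.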

Additional observations from a re-analysis of the deposited data

How the results depend on the processing

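Replicate numbers are not shared between groups. No paired analysis was possible because the groups share no replicate number. The count of solute carrier genes past the limma threshold in placebo against naive went from 0 to 1 with exact zeros left out and to 4 with array weights (2 higher, 2 lower), and was 0 in all other settings. In calcitriol against naive it went from 2 to 6 with array weights and to 1 with only the 2 groups compared, and ran from 1 to 3 when single arrays were left out (1 without calcitriol replicate 6, calcitriol replicate 8 or naive replicate 4). In calcitriol against placebo it was 0 in every setting run. The array weights were 4.38 on naive replicate 3, 0.26 on naive replicate 2 and 0.41 on naive replicate 4, and over all probe sets they raised the calls from 114 to 639 in placebo against naive and from 244 to 1014 in calcitriol against naive. These were 61 and 118 with only the 2 groups compared, and 20 to 176 and 75 to 392 when single arrays were left out. In calcitriol against placebo 1 probe set passed without calcitriol replicate 6 and 1 without calcitriol replicate 7, and 0 otherwise. The median over the genes moved to 0.067 log2 (placebo minus naive) and 0.10 log2 (calcitriol minus naive) with values as deposited, where the median of all probe sets moved to 0.11 and 0.09 log2. It was -0.057 log2 with exact zeros left out and 0.023 log2 with array weights for calcitriol minus naive. Leaving out single arrays gave medians of -0.072 to -0.0031 log2 for placebo minus naive and of -0.035 to 0.0019 log2 for calcitriol minus naive.

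Of 1229 alternative values of 62 gene and comparison pairs, 1190 kept their direction and their side of the threshold, 4 lost and 9 gained the call, and 26 turned. Many of these values could not turn. The log2 difference stays the same by construction without a trend or filter, with only the 2 groups compared, or without an array of the third group. Most pairs were also not called in the main fit, so the 1190 does not measure how robust the differences are. With exact zeros left out, the turned values were -0.61 (Slc19a1), -0.14 (Slc1a6), -0.16 (Slc25a45), -0.16 (Slc29a1), -0.19 (Slc46a1) and -0.088 log2 (Slc6a18) for calcitriol minus naive, -0.22 log2 (Slc22a12) for placebo minus naive, and -0.089 (Slc22a6) and -0.063 log2 (Slc25a10) for calcitriol minus placebo. Leaving out the array with the 0 gave these same values, the lowest when single arrays were left out; the highest were 0.97 (Slc19a1), 1.28 (Slc1a6), 2.57 (Slc25a45), 2.34 (Slc29a1), 1.66 (Slc46a1), 2.37 (Slc6a18), 1.19 (Slc22a12), 1.41 (Slc22a6) and 2.08 log2 (Slc25a10). With array weights Slc19a1 stood at -0.36 and Slc22a4 at 0.29 log2, and with the mean of all probe sets Slc19a1 stood at -0.031 log2. Slc22a4 ran from -0.92 to 0.17 log2 (without naive replicate 4) when single arrays were left out. Slc1a1 turned to 0.074 log2 with the floor of 5%, and ran from -0.98 to 0.11 log2 when single arrays were left out (positive without calcitriol replicate 6, naive replicate 2 or naive replicate 3). Where no cause is named, the cause was not tested.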
